A study of Mus musculus with 6 samples.

Results

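The ZIC proteins are transcription factors with C2H2 zinc fingers, and the 4 family members described here are the genes Zic1, Zic2, Zic4 and Zic5. They were picked by symbol from the exon count tables of cultured mouse cerebellar granule neurons (CGNs), where they made up 4 of 55341 listed genes. All 4 were among the 16729 genes with enough reads to be tested. The cultures came from early postnatal CD-1 IGS pups of both sexes, with litters pooled, and granule neuron progenitors were enriched on Percoll. Every culture received AraC, a nucleoside analogue that acts against dividing cells. GSK-126, an inhibitor of EZH2, or its vehicle DMSO was added at day in vitro (DIV) 3, and polyadenylated RNA was collected at DIV5. EZH2 is the enzyme that places the repressive mark H3K27me3 on histones. There were 3 libraries with DMSO and 3 with GSK-126, and each replicate number in the labels occurs once in each group. The sources used here do not name the GSK-126 dose of the DIV3 experiment.

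ZIC proteins are relatives of the GLI factors that act in Hedgehog signalling, and their name comes from the first member, a zinc finger protein of the cerebellum. Granule neuron progenitors and the neurons they form both express Zic genes, as do the meninges that cover the cerebellum. The genes lie in head-to-head pairs: Zic1 with Zic4 and Zic2 with Zic5. Loss of Zic1 function disturbs cerebellar foliation in mice, deletions that include ZIC1 and ZIC4 have been found in people with Dandy-Walker malformation, and ZIC2 mutations cause holoprosencephaly.

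In the GRCm38 annotation (GENCODE M21), Zic1 (ENSMUSG00000032368.14) occupied chr9:91358058-91365810 on the minus strand and Zic4 (ENSMUSG00000036972.14) occupied chr9:91362413-91389348 on the plus strand. Their gene bodies overlapped by 3398 bases, but their exons shared only 60 bases, or 1.05% of the Zic1 exons and 0.581% of the Zic4 exons. Zic5 (ENSMUSG00000041703.7) was at chr14:122456795-122465677 on the minus strand and Zic2 (ENSMUSG00000061524.8) at chr14:122475435-122479852 on the plus strand. The annotated starts of this second pair were 9758 bases apart, and the gene bodies did not overlap. The 60 shared bases lay at chr9:91362459-91362518, within the Zic1 coding sequence and in an exon of 1 Zic4 transcript. They are shown, on the minus strand, because a read that falls there matches both genes and can be told apart only by strand, and the strand setting of the counting is not stated in the sources used here.
Zic1 and Zic4 shared exon: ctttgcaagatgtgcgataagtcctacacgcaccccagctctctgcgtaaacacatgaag

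The members also resemble each other in their zinc finger coding sequence, so exact runs shared by the exons of each pair were sought as a measure of how far reads could be misplaced. On the same strand no pair shared a 50-base window, and the libraries were read as paired ends of 150 bases. On opposite strands, Zic1 and Zic4 share the exon stretch printed above.

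The RefSeq promoter sequences (GRCm38.p6) matched 3 of the 4 members: Zic1, Zic4 and Zic5. The 250 bases before each RefSeq start are printed because the members share a direction of difference between the groups, given further on. None of these starts is the annotated gene start given above, and each printed promoter ends inside its gene. That of Zic1 ends at chr9:91365769, and its gene begins at chr9:91365810. That of Zic5 ends at chr14:122465659, and its gene begins at chr14:122465677. For Zic4, which has 12 annotated transcripts, the promoter ends at chr9:91368971, inside the gene that begins at chr9:91362413. Capitals mark the CCAAT box and the GC box, whose letters are GGGCGG. The search covered both strands and also took in the TATAAA element and the core of a ZIC binding motif, CCTGCTG. The matches did not overlap.
Zic1 promoter, chr9:91365769-91366018, minus strand: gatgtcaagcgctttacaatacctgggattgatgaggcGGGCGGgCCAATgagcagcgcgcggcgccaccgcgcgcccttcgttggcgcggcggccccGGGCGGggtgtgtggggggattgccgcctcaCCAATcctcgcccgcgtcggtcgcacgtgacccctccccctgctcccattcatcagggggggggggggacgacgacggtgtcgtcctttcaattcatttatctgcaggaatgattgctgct
Zic4 promoter, chr9:91368722-91368971, plus strand: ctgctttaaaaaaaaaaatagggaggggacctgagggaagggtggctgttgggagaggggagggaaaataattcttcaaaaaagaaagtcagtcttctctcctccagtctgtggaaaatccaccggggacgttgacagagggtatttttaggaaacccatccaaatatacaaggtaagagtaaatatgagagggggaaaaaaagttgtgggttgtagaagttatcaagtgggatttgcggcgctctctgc
Zic5 promoter, chr14:122465659-122465908, minus strand: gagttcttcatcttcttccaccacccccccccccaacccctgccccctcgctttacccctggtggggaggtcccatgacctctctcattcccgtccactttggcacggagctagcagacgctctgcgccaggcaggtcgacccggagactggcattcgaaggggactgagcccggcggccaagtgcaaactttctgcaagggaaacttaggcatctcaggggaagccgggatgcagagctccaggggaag

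The 3 promoters differed in base composition. The Zic1 promoter held 27 CpG dinucleotides at a GC content of 66.0%, more CpG than 91.4% of the 32851 promoters in the table. The Zic5 promoter held 11 at 62.4%, and the Zic4 promoter held 4 at 44.4%. The median promoter held 6 CpG at a GC content of 52.4%. Both CCAAT and GGGCGG occurred only in the Zic1 promoter among the 3. CCAAT began 205 and 121 bases before the start and GGGCGG 212 and 152 bases before it. Of all promoters, 33.9% held CCAAT and 32.7% held GGGCGG. The element TATAAA was in none of the 3 and in 12.4% of all promoters, and CCTGCTG was in none of the 3 and in 8.44% of all.

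Levels are given as CPM, the share of a library's gene counts scaled to a common total by the TMM method. Total counts on genes ran from 7407189 to 13092763 per library. Replicate 2 had the highest level of each of the 4 Zic genes in both groups. It also had the highest summed level of granule neuron markers and the lowest of astroglial markers in both groups, and each Zic difference is therefore given within replicate pairs as well as between groups. In bulk RNA, fewer cells of a type and less RNA per cell cannot be told apart.

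Zic1 was the most abundant member and had the largest difference between the groups. Its level with DMSO was 1279.6, 1887 and 1506.5 CPM in replicates 1, 2 and 3. With GSK-126 it was 1085, 1539 and 1147 CPM. The groups overlapped, since replicate 2 with GSK-126 was above replicates 1 and 3 with DMSO, but within each numbered pair the GSK-126 library was lower, by 15.2%, 18.5% and 23.8%. The mean was 1558 ± 307 CPM in the DMSO group and 1257 ± 246 CPM in the GSK-126 group (SD, n = 3 each), a difference of 19.3%. The counts behind these levels were 8590 to 20239 reads per library.

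Zic2, the other abundant member, had the smallest difference. Its level with DMSO was 498, 670.25 and 562 CPM in replicates 1, 2 and 3, and with GSK-126 it was 427, 622 and 463 CPM. The groups overlapped again through replicate 2, and the pairs were lower with GSK-126 by 14.2%, 7.14% and 17.6%. The mean was 577 ± 86.9 CPM in the DMSO group and 504 ± 104 CPM in the GSK-126 group (SD, n = 3 each), a difference of 12.6%. Its counts were 3465 to 7189 reads per library.

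Zic4, the partner of Zic1, had the most even difference across the pairs. With DMSO its level was 297, 399.87 and 305 CPM, and with GSK-126 it was 252, 335 and 259 CPM, in the order of the replicate numbers. Replicate 2 with GSK-126 was again above replicates 1 and 3 with DMSO. The 3 pairs were lower with GSK-126 by 15.3%, 16.2% and 15.04%, a spread of only 0.010 (SD) on the log2 scale. The mean was 334 ± 57.0 CPM in the DMSO group and 282 ± 46.1 CPM in the GSK-126 group (SD, n = 3 each), a difference of 15.6%, on 1941 to 4289 reads per library.

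Zic5, the partner of Zic2, took the fewest reads of the 4. Its level with DMSO was 141, 194 and 163 CPM and with GSK-126 it was 123, 167 and 128 CPM. The groups overlapped in the same way as those of the other members, and the pairs were lower with GSK-126 by 12.4%, 14.1% and 21.6%. The mean was 166 ± 26.8 CPM in the DMSO group and 139 ± 23.9 CPM in the GSK-126 group (SD, n = 3 each), a difference of 16.1%, on 958 to 2083 reads per library.

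**Figure D1:**
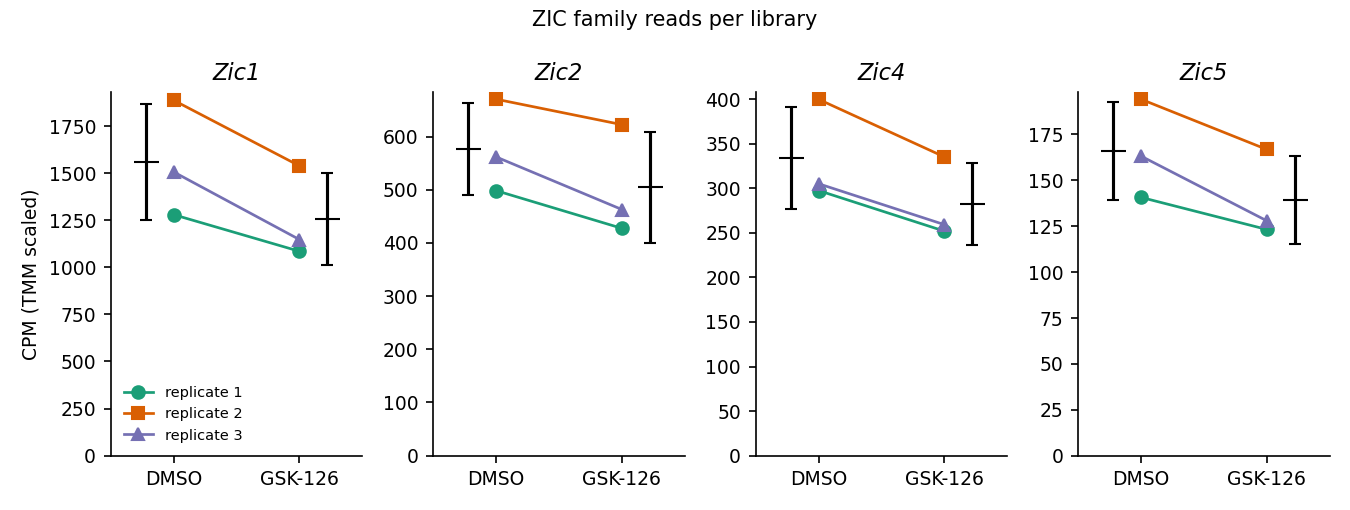
Level of Zic1, Zic2, Zic4 and Zic5 in each library, in CPM (TMM scaled), with DMSO and GSK-126 side by side; points are libraries each line joins the 2 libraries of a replicate number, and black bars beside the points are the mean ± SD. Every line slopes down from DMSO to GSK-126, and the replicate 2 line is the highest in each panel, for example 1887 and 1539 CPM for Zic1.

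Whether a group difference of this size exceeded the spread between libraries depended on whether the replicate number entered the model. Without it, edgeR's quasi-likelihood test gave log2 fold changes (GSK-126 over DMSO) of -0.31 (SE 0.22) for Zic1, -0.19 (SE 0.19) for Zic2, -0.24 (SE 0.18) for Zic4 and -0.25 (SE 0.17) for Zic5. All 4 had a Benjamini-Hochberg adjusted p of 0.953, with unadjusted p values of 0.190, 0.341, 0.204 and 0.179 from edgeR. This fit called 0 of the 4 members, as it called 0% of all tested genes, and DESeq2 without the block also called 0 of the 4, against 0.128% of genes. At an unadjusted p under 0.05, edgeR put 0 of the 4 members among the 369 genes that were lower with GSK-126, which were 2.21% of the tested genes. An exact permutation test of the CPM of each gene (two-sided) gave p = 0.3, 0.4, 0.3 and 0.3 for Zic1, Zic2, Zic4 and Zic5. The smallest p that 3 against 3 libraries allow is 0.1.

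With the replicate number as a block, edgeR called Zic1, Zic4 and Zic5 lower with GSK-126. Their log2 fold changes were -0.31 (SE 0.067), -0.24 (SE 0.069) and -0.25 (SE 0.076), with Benjamini-Hochberg adjusted p of 0.00521, 0.0324 and 0.0426. Zic2 had a log2 fold change of -0.20 (SE 0.069) and an adjusted p of 0.0799 in the same edgeR fit, so it did not pass. Thus 3 of the 4 members were called lower, where 5.09% of all tested genes were (851 genes), and 0 were called higher, where 3.35% were (561 genes). The difference in call between Zic2 and the other members is not a tested difference between the genes. DESeq2 with the same block called Zic1 (adjusted p = 2.9e-04) and Zic4 (adjusted p = 0.0296) but not Zic5 (adjusted p = 0.0788) or Zic2 (adjusted p = 0.0859). It called 627 genes lower, 5.59% of the 11215 to which it gave an adjusted p.

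All 4 members were lower in all 3 pairs, where 22.8% of tested genes were. The groups overlapped for each member, whereas they did not overlap for 9.44% of tested genes, taking both directions. An exact sign-flip test over 3 pairs cannot give a two-sided p under 0.25, which is the value each member reached. Against the whole table, 12.3% of tested genes had a lower log2 fold change than Zic1, 22.2% than Zic2, 17.1% than Zic4 and 16.3% than Zic5 in the fit without the block. The median of all tested genes in that fit was -0.0071.

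**Figure D2:**
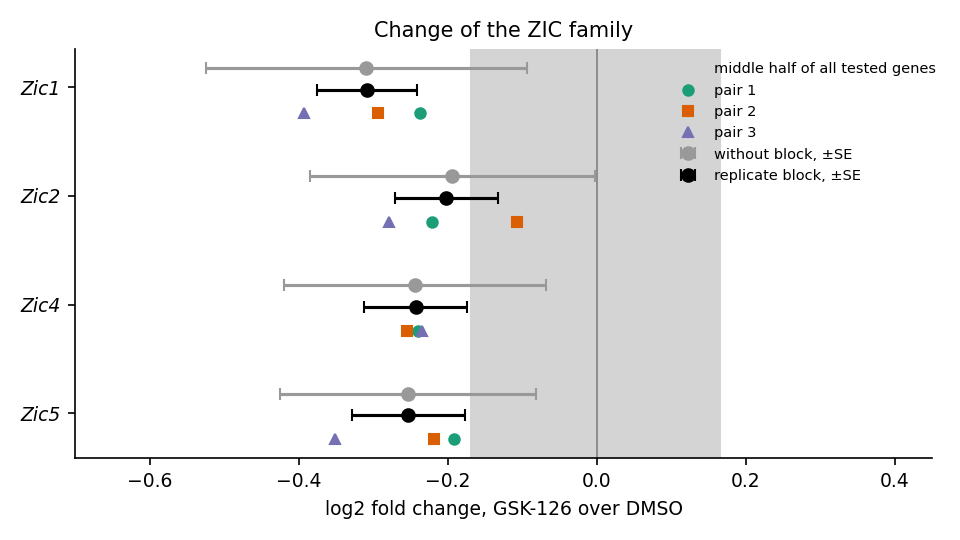
Log2 fold change of the 4 members, GSK-126 over DMSO: coloured points are the 3 replicate pairs, the grey and black points with bars are the edgeR estimates ± SE without and with the replicate number as a block, and the grey band spans the interquartile range of all tested genes. The estimates lie between -0.31 and -0.19 in both fits, and the bars are shorter with the block, for example 0.067 against 0.22 for Zic1.

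The call of each member rested on few pairs. Leaving out the third pair took Zic1 to an adjusted p of 0.0695 in the blocked edgeR fit, while it stayed called without the first pair (adjusted p = 0.00268) or the second (adjusted p = 0.0272). Zic4 and Zic5 were not called once any 1 pair was left out, with edgeR adjusted p from 0.0717 to 0.189 and from 0.0642 to 0.27. Zic2 was not called in any of these fits. Replicate 2 also set the size of the unblocked differences. Without the GSK-126 library of replicate 2 the log2 fold change of Zic1 was -0.46, and without the DMSO library of replicate 2 it was -0.15.

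Compared per kilobase of annotated exon, the members fell into a high and a low group. In DMSO, Zic1 had 274 ± 53.9 and Zic2 200.26 ± 30.2 CPM per kilobase (SD, n = 3), ranks 68 and 109 among the 16729 tested genes. Zic5 had 34.0 ± 5.49 and Zic4 32.3 ± 5.52 CPM per kilobase, ranks 1462 and 1559. With GSK-126 the order was the same, at 221 ± 43.2 for Zic1, 175 ± 36.1 for Zic2, 28.5 ± 4.89 for Zic5 and 27.3 ± 4.46 for Zic4. Zic4 and Zic5 did not differ beyond their spread, and their order depended on the length used: Zic4 has 12 annotated transcripts, and per kilobase of its longest one its level in DMSO was 85.9, against 34.8 for Zic5.

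Within a library the members kept nearly constant proportions. Of the reads on the 4 genes, Zic1 took 57.4% to 59.9%, Zic2 21.3% to 23.4%, Zic4 12.03% to 13.4% and Zic5 6.16% to 6.53%. Together they held 0.225%, 0.2996% and 0.252% of all gene counts with DMSO and 0.190%, 0.269% and 0.202% with GSK-126. The sum was thus lower with GSK-126 in every pair, and its highest value with GSK-126 lay within the DMSO range.

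Ratios taken within a library compare members free of library scaling, and 3 were compared between the groups. The log2 ratio of Zic1 to Zic2, the most abundant members, was 1.36, 1.49 and 1.42 with DMSO and 1.34, 1.31 and 1.31 with GSK-126. These groups did not overlap, and the difference was -0.11. The exact permutation p was 0.1, the smallest this design allows, and 0.3 after Benjamini-Hochberg adjustment over the 3 ratios. The ratio within each head-to-head pair overlapped between the groups. It differed by -0.065 for Zic1 over Zic4 (exact permutation p = 0.5, adjusted 0.5) and by 0.051 for Zic2 over Zic5 (exact permutation p = 0.2, adjusted 0.3), both on the log2 scale.

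The cultures expressed granule neuron genes, and the summed level of their markers, though not each marker, was lower with GSK-126 in every pair, as the Zic genes were. All 12 listed granule neuron markers were tested, and their summed level was 4112 to 6679 CPM in DMSO libraries and 3221 to 5172 CPM in GSK-126 libraries. In the blocked edgeR fit 7 of them were called lower and 1, Tubb3, higher, where 5.09% and 3.35% of all tested genes were. The marker genes named here and in the account of other cells were picked out after their values were seen. Rbfox3, which encodes the neuronal nuclear protein NeuN, fell from 418 ± 125 to 279.6 ± 102 CPM (SD, n = 3 each) with a log2 fold change of -0.59 (SE 0.074) in the blocked edgeR fit and a Benjamini-Hochberg adjusted p of 2.7e-05. The pairwise log2 differences of the summed markers were -0.35, -0.37 and -0.28, of the same sign as those of the Zic genes. They were larger in size than those of all 4 members in the first and second pairs, and in the third they were smaller than those of Zic1 (-0.39) and Zic5 (-0.35) and equal to that of Zic2 at this precision (-0.28).

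Relative to that marker sum, no Zic gene was lower with GSK-126 on average, a comparison chosen after seeing the data. The log2 differences were 0.025 for Zic1, 0.13 for Zic2, 0.090 for Zic4 and 0.079 for Zic5, with exact permutation p of 1, 0.5, 0.5 and 0.7. Zic4 was higher relative to the markers in all 3 pairs, by 0.11, 0.11 and 0.043, and Zic1 was higher in the first and second pairs and lower in the third, by 0.11, 0.075 and -0.12. The markers in the sum differed unevenly, with blocked edgeR log2 fold changes from -1.95 for Slc17a7 to 0.40 for Tubb3. Fat2 and Reln, with means of 1706 and 1083 CPM in DMSO libraries, were its largest parts. Their values in that fit were -0.25 and -0.21, close to those of the Zic genes. Pax6 was at -0.070 and Slc17a6 at 0.14, both nearer 0 than any Zic gene or above it. The sign therefore holds for this sum only, and other choices of markers were not tried. Whether the markers and the Zic genes share a source of the difference was not tested.

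Markers of other cells were also present. Meningeal fibroblast markers, from a cell type that can express Zic genes, summed to 7353 to 9627 CPM in DMSO and 8073.5 to 10339 CPM in GSK-126 libraries. The sum was higher with GSK-126 in every pair (log2 differences 0.28, 0.066 and 0.10). Most of it came from the collagen genes Col1a1, Col1a2 and Col3a1, with means of 2970, 2242 and 2482 CPM in DMSO libraries. These, Foxc1 and Aldh1a2 were higher in every pair. Foxc2 and Slc6a13 were lower in every pair, and Dcn, Lum and Tbx18 were mixed. Of these 10 markers Col1a2 was called higher and Slc6a13 lower with the block. For this and the lists below, 3.35% of all tested genes were called higher and 5.09% lower in that fit. Astroglial markers summed to 2629 to 8134 and 2559 to 8435 CPM, with 1 of 8, S100b, called higher. Microglial markers ran from 242 to 553 and from 365 to 674 CPM, with 4 of 8 called higher (C1qa, C1qb, C1qc and Tyrobp), and oligodendrocyte markers from 433 to 747 and from 502 to 762 CPM, with 1 of 8, Mbp, called higher. Markers of GABAergic and Purkinje neurons ran from 211 to 244 and from 162 to 199 CPM, with 3 of 8 called lower (Gad1, Gad2 and Slc32a1), and those of unipolar brush cells from 111 to 138 and from 98.8 to 154 CPM, with 1 of 4, Eomes, called lower. Choroid plexus markers summed to 230 to 478 and 222 to 422 CPM (3 of 4 tested) and endothelial markers to 66.9 to 85.4 and 51.7 to 86.0 CPM (4 of 5 tested), with none of either list called. For progenitors and the cell cycle, 8 of 10 listed genes were tested, at 395 to 536 and 416 to 611 CPM, with 1, Pcna, called higher. Atoh1, which defines granule progenitors, had at most 7 counts in a library. The part of these cells in the Zic levels was not tested.

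Transcription factors of the granule lineage gave a background for the Zic genes. Of the 23 listed, 22 were tested. Of these, 16 (72.7%, against 51.2% of all tested genes) had a log2 fold change below 0 and 6 above it, with a median of -0.19. None was called without the block. With it, 6 were called lower (27.3%, against 5.09% of all tested genes) and 2 higher (9.09%, against 3.35%). Etv1, an ETS factor of maturing granule neurons, fell by 1.17 on the log2 scale (blocked edgeR, Benjamini-Hochberg adjusted p = 1.5e-07), from 202 ± 123 to 84.4 ± 33.6 CPM (SD, n = 3 each). Neurod1, a basic helix-loop-helix factor needed for granule neuron differentiation, fell by 0.47 on the same scale and in the same fit (adjusted p = 1.1e-04), from 694 ± 236 to 498 ± 161 CPM. The other 4 called lower were Nhlh2, Barhl2, Nfix and Zbtb18. Barhl1, a homeobox factor of the lineage, rose by 0.33 (adjusted p = 0.0492) and Sox11, a factor of immature neurons, by 0.31 (adjusted p = 0.0386), in log2 units and by the same blocked edgeR test. Neurod1, Etv1 and Pax6 are also on the granule neuron marker list.

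**Figure D3:**
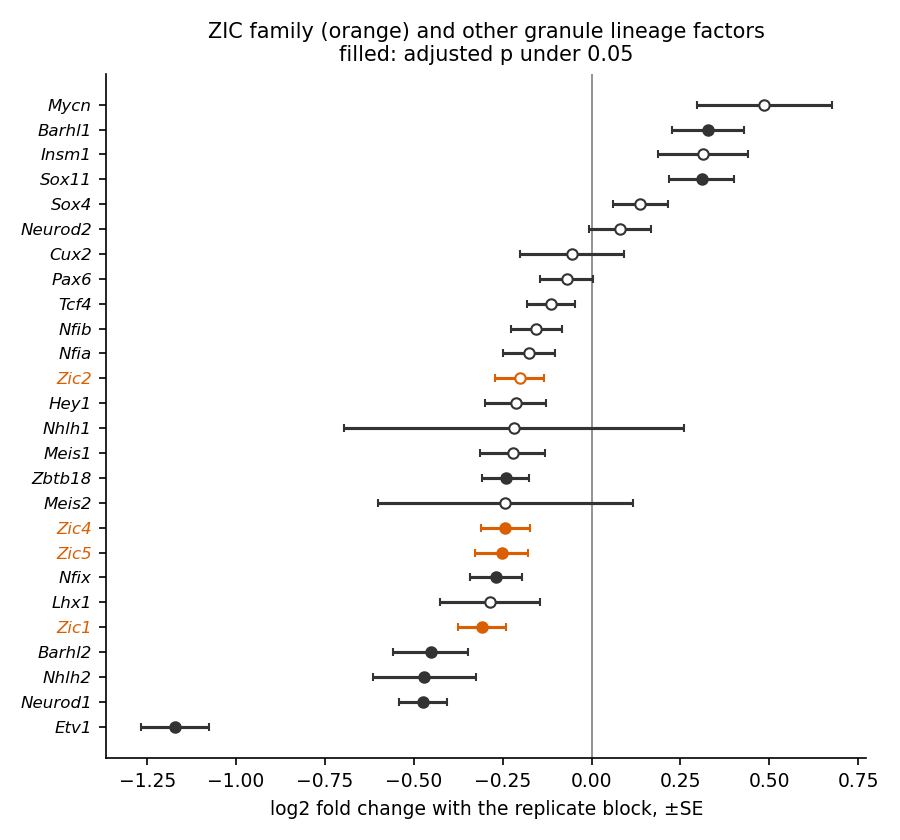
Log2 fold change with the replicate block (edgeR, ± SE) of the granule lineage transcription factors tested and of the 4 Zic genes, GSK-126 over DMSO. The factors run from Etv1 at -1.17 to Mycn at 0.49, and the 4 Zic genes lie between -0.31 and -0.20.

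The closest relatives of the family are the GLI superfamily genes. Of 6 listed 5 were tested, and Gli1 was below the filter. In either edgeR fit 0 of the 5 were called. Of all tested genes 0% were called without the block, and 5.09% lower and 3.35% higher with it. At those shares a list this short need not hold a call. Glis1 had the largest fold (log2 1.63) but at most 17 counts, with an adjusted p of 0.151 in the blocked edgeR fit. Of 6 genes described as ZIC-regulated elsewhere 3 were tested. Apoe, a lipid carrier made mostly by astroglia and microglia, rose by 0.34 on the log2 scale (blocked edgeR fit, Benjamini-Hochberg adjusted p = 0.00777), Ephb1 had -0.21 (adjusted p = 0.0944) and Pax3 0.23 (adjusted p = 0.492).

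Neighbouring genes were examined up to 500 kilobases from the members. Around Zic1 and Zic4, 4 of 16 annotated genes were tested, and around Zic2 and Zic5, 8 of 19. None was called with the block, where 5.09% of all tested genes were called lower and 3.35% higher. At those shares so few genes need not hold a call. The tested neighbours of Zic1 and Zic4 had few reads. Gm37457 had 1 to 46 counts per library, A730094K22Rik 5 to 15 and Gm37987 2 to 13. Their blocked log2 fold changes were -0.26 (SE 0.54), 0.27 (SE 0.58) and 0.15 (SE 0.63), and that of Gm37477 was -0.037 (SE 0.21). The non-coding gene 2610035F20Rik starts 236 bases from the Zic2 start on the opposite strand. Its level was 38.5 ± 4.58 CPM in DMSO libraries and 32.8 ± 5.82 CPM in GSK-126 libraries (SD, n = 3 each), a blocked log2 fold change of -0.24 (SE 0.11, edgeR, Benjamini-Hochberg adjusted p = 0.226), a value close to those of the Zic genes and short of the threshold. Pcca, a subunit of propionyl-CoA carboxylase, had a log2 fold change of -0.20 (adjusted p = 0.229, edgeR with the block). Of the other neighbours of Zic2 and Zic5, 4 were above 0 in the same fit: Tm9sf2 had 0.024 at 163 CPM in DMSO libraries, Clybl 0.0085, A330035P11Rik 0.017 and 4930594M22Rik 0.30 (SE 0.20). Gm5089 had -0.11 and Ggact -0.30 (SE 0.16). Zic4 shares 468 exon bases with Gm37477, on the opposite strand, which had 66 to 113 counts per library.

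**Figure D4:**
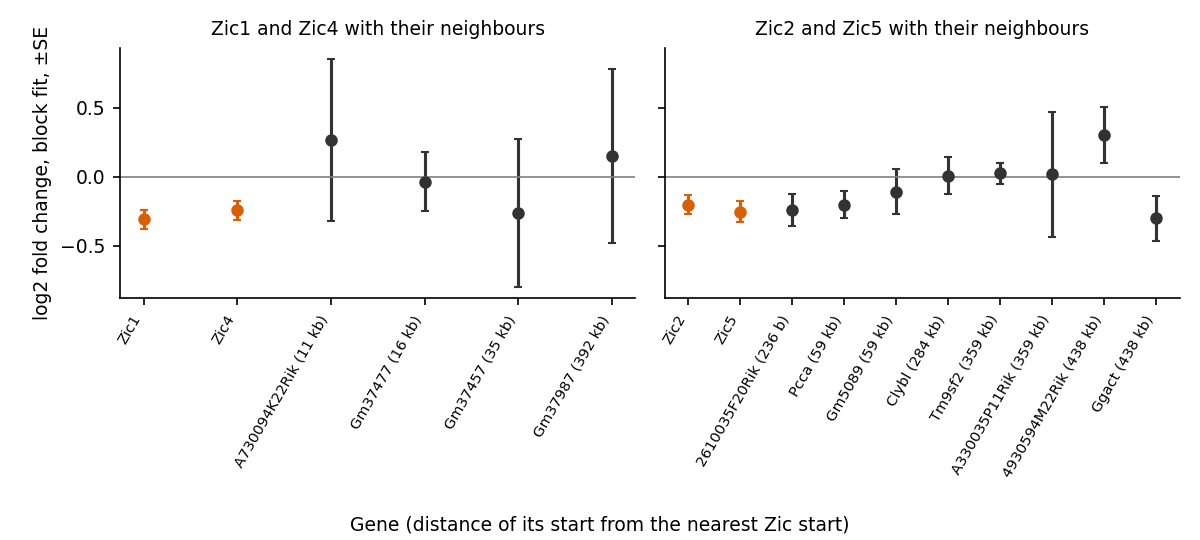
Blocked edgeR log2 fold change (± SE) of tested genes within 500 kilobases of a Zic start, with the members in orange, GSK-126 over DMSO, ordered by distance. Apart from Zic1, Zic4 and Zic5, no gene shown passed the adjusted threshold, where 5.09% of all tested genes were called lower and 3.35% higher. The gene 2610035F20Rik, 236 bases from Zic2, is at -0.24.

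Genes whose level followed the same profile over the 6 libraries were named by the smallest root mean square log2 distance, among 12147 genes. For Zic1 they were Slc15a3 (0.019), a peptide and histidine transporter gene, Zfyve9 (0.031) and Kif5c (0.034), a neuronal kinesin. For Zic2 they were Rgs7 (0.017), Sh3rf3 (0.022) and Rab6b (0.027). For Zic4 they were Psip1 (0.014), Pip5k1c (0.029) and Calm2 (0.033), a calmodulin gene, and for Zic5 they were Rere (0.022), Mark2 (0.022) and Ctbp2 (0.023). Other members also ranked high. Zic5 was the 10th nearest to Zic2, its head-to-head partner. For Zic1, Zic5 was the 14th nearest, Zic2 the 67th and Zic4, its own head-to-head partner, the 90th. These distances come from 6 libraries of 2 conditions, so any gene that is high in replicate 2 and a little lower with GSK-126 is near.

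Genes that gained ZIC binding were compared with genes that did not, using lists the study made from other samples. Both lists held genes whose promoters lost H3K27me3 in the maturing cerebellum, split by whether they gained ZIC1/2 binding over that time. Of 746 genes with gained binding, 739 were in the files and 685 were tested. Their median log2 fold change was -0.14, with 444 below 0 and 241 above, so 64.8% were lower against 51.2% of all tested genes. With the block, 176 were called lower (25.7% of the 685, against 5.09% of all tested genes) and 26 higher (3.796%, near the 3.35% of all tested genes). Of 586 genes without gained binding, 357 were tested, with a median of -0.0056 and with 32 called lower (8.96%) and 18 higher (5.04%). The lists differed in more than ZIC binding. The paper reports neuronal terms for the gained genes and generic cell-fate terms for the others. Of genes in the files, 685 of 739 passed the filter on the gained list, against 357 of 579 on the other. A gene without gained binding is not thereby unbound, and the part of binding in the difference between the lists was not tested. None of the 4 Zic genes was on either list. The median of the gained list was -0.091, -0.15 and -0.17 in the 3 pairs, and -0.075 without the DMSO library of replicate 2, against -0.18 without the GSK-126 library of replicate 2.

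Members of the gained list moved in both directions. Egr4, an activity-induced zinc finger factor, fell by 2.37 on the log2 scale, from 15.6 ± 12.7 to 3.16 ± 3.36 CPM (blocked edgeR, Benjamini-Hochberg adjusted p = 2.9e-06). Slc17a7, the vesicular glutamate transporter VGLUT1 and also a listed granule neuron marker, fell by 1.95, from 133 ± 124 to 33.7 ± 29.9 CPM (adjusted p = 1.3e-10), and Sv2c, a synaptic vesicle protein, fell by 1.81, from 40.0 ± 20.2 to 11.1 ± 4.57 CPM (adjusted p = 9.4e-08), both by the same test and scale. Clstn2, a synaptic calsyntenin, rose by 0.96, from 9.44 ± 1.25 to 18.3 ± 1.39 CPM (adjusted p = 0.00103, blocked edgeR). Hrk, a pro-apoptotic BH3-only gene, rose by 0.84 (adjusted p = 9.9e-04) and Itgb3, an integrin subunit, by 0.78 (adjusted p = 0.00842) in log2 units by the same test.

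**Figure D5:**
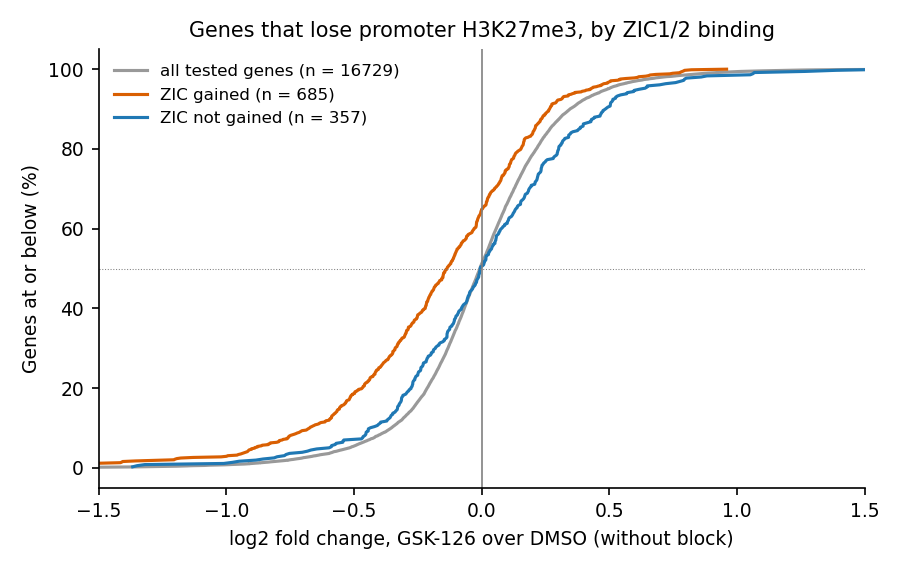
Cumulative share (percent of genes at or below a value) of the log2 fold changes (GSK-126 over DMSO, edgeR without the block) of all tested genes, of the 685 genes with gained ZIC1/2 binding and of the 357 without. The medians are -0.0071, -0.14 and -0.0056.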

How the data were processed

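Per the labels and the methods, the authors isolated polyadenylated RNA from DMSO- and GSK-126-treated CGN cultures, sequenced it as paired ends, trimmed it with Trimmomatic 0.38, aligned it to mm10 with STAR 2.7.2b and deposited read counts over exons for each library. Genes were counted with HTSeq over exons of a Gencode annotation of GRCm38.p4, whose release number and the strand setting are not given in the sources used here. All 55341 listed symbols matched GENCODE M21. Reads that the tables assign to no gene (58.7% to 60.7% of reads) were left out of library sizes and tests.

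From these counts, TMM-scaled CPM and edgeR 4.0.16 quasi-likelihood fits (R 4.3.3) were computed for the 16729 genes kept by filterByExpr, over both groups, with Benjamini-Hochberg adjustment at 0.05. The replicate number entered as a block in an alternative fit. Same-numbered libraries deviated together (correlations 0.56, 0.63 and 0.49, against 0.0064 or less for other pairs). Deviations were taken from each group's mean, so high correlations for some pairs lower the others, and part of this contrast is built in. The paper's methods name no pairing for RNA-seq, and the numbers were taken to pair the libraries on these correlations. Each replicate is a separate culture of pooled litters. Without the block, p-values reflect the spread between cultures. With it, they reflect the spread left after the replicate effect is removed. The common biological variation was 24.0% without the block and 9.74% with it. No 2 libraries of the same group agreed within sampling noise. DESeq2 1.42.0 was an alternative. Other alternatives were upper-quartile and total-count scaling, no filter, a higher filter and leaving out each library or pair. The statistics were tested on simulated counts.

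The members and gene lists were chosen with earlier results of these data known. Besides the members, named genes were those of the fixed lists, the 3 genes nearest in profile to each member, the tested genes within 500 kilobases and the 3 largest called changes in each direction on the gained list, the nearest and gained genes with a mean log2 CPM over 3.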

Additional observations from a re-analysis of the deposited data

How the results depend on the processing

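The replicate block, or pairing, decided the calls. The unblocked edgeR fit called 0 genes, and the block raised this to 1412, or 999 with DESeq2; the blocked edgeR fit gave 1088, 833 and 1277 without replicates 1, 2 and 3. Without the block, DESeq2 called 21 genes and edgeR with no filter called 10, and leaving out any 1 library called 0. With the block the log2 fold changes were -0.31 for Zic1, -0.24 for Zic4 and -0.25 for Zic5, now past the threshold, and with DESeq2 and the block they were -0.30 for Zic1 and -0.24 for Zic4. In the blocked fit Zic1 was at -0.33 without replicate 1 and -0.31 without replicate 2, still called, and -0.26 without replicate 3, not called. Relative to the granule neuron marker sum, an alternative chosen after seeing the data, the mean difference of all 4 members changed sign, to 0.025, 0.13, 0.090 and 0.079. These differences did not stand out from the spread between libraries (exact permutation p of 0.5 or more). In the third pair Zic1, Zic2 and Zic5 were still lower, by -0.12, -0.0017 and -0.073. The cause was not tested.

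Leaving out 1 library without the block gave -0.46 to -0.15 for Zic1, -0.36 to -0.069 for Zic2, -0.37 to -0.092 for Zic4 and -0.39 to -0.12 for Zic5, lowest without GSK-126 replicate 2 and nearest 0 without DMSO replicate 2. The ratios ranged from -0.14 to -0.072 for Zic1 over Zic2, from -0.12 to -0.021 for Zic1 over Zic4 and from 0.026 to 0.079 for Zic2 over Zic5, and the median of the genes with gained ZIC binding from -0.18 to -0.075. Other scalings kept the members' direction. With 3 libraries a group, permutation tests could not pass the threshold.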
